A study of Rattus norvegicus with 12 samples.

Results

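Rat kidney fibroblasts that carried a plasmid for human HDAC1 were compared with and without the cytokine TGFB1. Of the 12 libraries of the series, 6 belong to this comparison, chosen by their titles: 3 of cells given TGFB1 and 3 of cells given vehicle. The cells were NRK-49F, an established fibroblast line from normal rat kidney, and all 6 samples had been transfected with the plasmid, which encodes HDAC1 with a Flag tag. Vehicle was medium with 0.5% serum, and the treated cells received 2 ng/ml TGFB1 for 24 hours in the same medium. The other 6 libraries came from cells with the empty vector pcDNA3.1 under the same 2 treatments, and they serve to ask whether the response differed with HDAC1, to mark genes that follow heart and brain transcripts and, in the shared fit, to estimate the spread, the scaling and the low-count filter. Groups follow the titles: the treatment label numbers TGFB1 upward over the treated samples, and the design text speaks of TGFB1 for every sample. The labels name neither separate cultures nor transfection rates, so p-values rest on how far these libraries differ, which may be technical, and bulk RNA cannot tell a change in every cell from a change in some of them.

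TGFB1 binds a pair of receptor kinases that phosphorylate SMAD2 and SMAD3, and these enter the nucleus with SMAD4 and bind DNA at short CAGA-like sequences. In kidney fibroblasts the pathway is known for driving matrix production, contractile gene expression and its own feedback inhibitors. HDAC1 is a class I histone deacetylase that removes acetyl groups from histones as part of the SIN3, NuRD and CoREST complexes.

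The plasmid gene was followed through 2 rat genes. Hdac1l, whose symbol marks it as Hdac1-like, stood at 1297, 852 and 1367 CPM (counts scaled to a common library size with TMM factors) in the vehicle libraries and at 1211, 802 and 1257 CPM in the TGFB1 libraries. In the empty vector libraries it lay between 0.526 and 15.1 CPM. Hdac1 itself was at 428, 375 and 460 CPM with vehicle and 501, 416 and 474 CPM with TGFB1, against group means of 210 and 267 CPM with the empty vector. All 6 HDAC1 libraries were thus above all 6 empty vector libraries in both genes, and the levels of vehicle and TGFB1 libraries overlapped. Neither gene was called for TGFB1 (Hdac1 log2 fold change 0.14 ± 0.08, edgeR adjusted p = 0.156, and Hdac1l -0.11 ± 0.47, adjusted p = 0.874). The human transcript and these rat genes share sequence, so how reads were divided between the 2 rows is uncertain.

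Library totals in the comparison ran from 18661922 to 36652084 counts, and 14601 of 43360 genes passed the low-count filter. Of the 9 fibroblast markers with a symbol, summed levels were 12480 to 14590 CPM with vehicle and 18620 to 21850 CPM with TGFB1. Singly they went both ways, with 4 called higher, 3 called lower and 2 not called. Some libraries stood apart. HDAC1 vehicle replicate 1 held transcripts of liver, with Alb at 27.4 CPM, Fgb at 11.3 CPM and Cyp2e1 at 6.87 CPM, whereas none of these genes exceeded 0.212 CPM in the other 11 libraries. Transcripts of heart and brain were present in all 12 libraries in unequal amounts. The 25 heart markers summed to 249.2, 481.5 and 442.8 CPM in the vehicle libraries and to 165.5, 178.3 and 160.8 CPM in the TGFB1 libraries, a log2 difference of -1.16. The 21 brain markers with a symbol summed to 81.78 to 128.6 CPM with vehicle and to 49.66 to 53.62 CPM with TGFB1, a log2 difference of -0.98. In both lists the summed levels of the groups did not overlap (exact permutation p = 0.1 for each, the smallest that 3 against 3 allows). Of single genes, 4 of 25 heart markers and 7 of 21 brain markers were called lower and none higher. Over all genes tested, 24.2% were called lower and 24.9% higher, so these counts alone do not set the markers apart as lower. Their median log2 fold changes were further down, -1.25 for heart and -1.02 for brain markers, against -0.0194 over all genes. Among the empty vector libraries, vehicle replicate 1 was low in both lists, at 74.22 and 21.74 CPM. A gene is described below as heart-and-brain-like where its level in that replicate was at least 1 log2 unit below both other replicates of its group, a rule that uses no library of the comparison and that marks 534 genes. The part of these tissue transcripts in single results was not tested, except where a value is given.

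**Figure D1:**
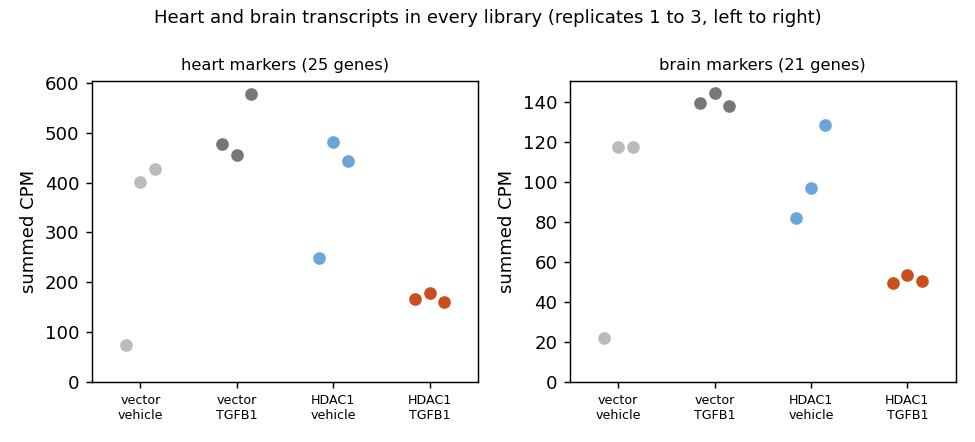
Summed CPM of the heart and brain marker genes in every library, by group, each point 1 library. The 3 HDAC1 libraries with TGFB1 lay below the 3 with vehicle in both panels, and empty vector vehicle replicate 1 lay lowest of all 12.

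With HDAC1, TGFB1 changed 7170 of 14601 genes, which is 49.1% (edgeR's quasi-likelihood test, Benjamini-Hochberg adjusted p under 0.05, called such below). Of these, 3638 (24.9% of the genes tested) rose and 3532 (24.2%) fell, and the median log2 fold change over all genes was -0.0194. Changes of at least 2-fold were fewer, 461 higher (3.16%) and 1003 lower (6.87%). Among the 534 heart-and-brain-like genes, 168 fell by at least 2-fold (31.5%), against 835 of the other 14067 (5.94%). Of those 14067 genes, 443 rose as much (3.15%), as did 18 of the 534 (3.37%). Groups that did not overlap were common: all 3 TGFB1 libraries were above all 3 vehicle libraries in 30% of genes and below them in 30.7%. Every count of members below is to be read against these shares.

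The sequences before the start sites of 7 genes that the results turn on are shown first. Each is the 250 bases before the RefSeq start on GRCr8, 5′ to 3′ on the strand of the gene, with the motif searched in capitals on either strand. The first 2 belong to genes that rose with TGFB1, the laminin chain gene Lamb3 (chr13:107362303-107362552, plus strand) and the SMAD corepressor gene Skil (chr2:114203573-114203822, minus strand), and capitals mark the SMAD box CAGAC or its reverse complement.
Lamb3: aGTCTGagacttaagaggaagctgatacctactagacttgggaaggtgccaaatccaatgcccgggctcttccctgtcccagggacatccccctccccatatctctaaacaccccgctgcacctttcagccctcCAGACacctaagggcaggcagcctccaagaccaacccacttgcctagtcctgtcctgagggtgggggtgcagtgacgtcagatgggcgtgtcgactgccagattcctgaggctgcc
Skil: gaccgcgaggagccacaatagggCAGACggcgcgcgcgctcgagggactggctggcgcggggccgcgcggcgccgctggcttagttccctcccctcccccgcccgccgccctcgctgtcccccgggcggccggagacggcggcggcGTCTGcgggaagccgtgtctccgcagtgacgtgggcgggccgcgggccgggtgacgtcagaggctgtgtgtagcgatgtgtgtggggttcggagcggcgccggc

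Gbp2 (chr2:234005477-234005726, plus strand) and Irf7 (chr1:205800024-205800273, minus strand) are interferon-stimulated genes that fell, and capitals mark the interferon-stimulated response element core, searched as GAAA, any 2 bases and GAAA again, or its reverse complement, at -31 and -69 from the start.
Gbp2: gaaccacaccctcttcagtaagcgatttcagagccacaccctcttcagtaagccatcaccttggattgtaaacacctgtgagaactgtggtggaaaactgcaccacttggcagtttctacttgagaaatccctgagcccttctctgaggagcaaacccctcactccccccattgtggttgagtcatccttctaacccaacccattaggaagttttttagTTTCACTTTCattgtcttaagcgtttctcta
Irf7: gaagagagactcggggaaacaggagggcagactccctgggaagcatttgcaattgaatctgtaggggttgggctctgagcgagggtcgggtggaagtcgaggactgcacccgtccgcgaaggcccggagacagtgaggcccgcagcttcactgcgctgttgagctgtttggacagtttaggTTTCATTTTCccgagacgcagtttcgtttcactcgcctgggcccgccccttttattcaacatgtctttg

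Cdc20 (chr5:137255800-137256049, minus strand) and Ccnb2 (chr8:79981659-79981908, minus strand) act in mitosis and had a lower log2 fold change with HDAC1 than with the empty vector, and capitals mark the cell cycle homology region TTTGAA or its reverse complement. Mcm7 (chr12:22163179-22163428, minus strand) is a subunit of the replicative helicase whose level rose, and capitals mark the E2F site, searched as TTTGGCGC and TTTCGCGC on both strands.
Cdc20: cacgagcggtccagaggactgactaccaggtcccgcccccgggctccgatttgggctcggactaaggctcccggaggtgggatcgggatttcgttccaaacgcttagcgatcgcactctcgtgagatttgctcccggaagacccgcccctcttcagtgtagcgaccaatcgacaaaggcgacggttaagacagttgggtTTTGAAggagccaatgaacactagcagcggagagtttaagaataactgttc
Ccnb2: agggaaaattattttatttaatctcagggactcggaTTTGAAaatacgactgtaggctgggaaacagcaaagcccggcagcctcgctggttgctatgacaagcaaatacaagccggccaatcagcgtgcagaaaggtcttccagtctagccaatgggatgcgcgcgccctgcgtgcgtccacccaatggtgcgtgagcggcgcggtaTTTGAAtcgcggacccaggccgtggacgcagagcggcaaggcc
Mcm7: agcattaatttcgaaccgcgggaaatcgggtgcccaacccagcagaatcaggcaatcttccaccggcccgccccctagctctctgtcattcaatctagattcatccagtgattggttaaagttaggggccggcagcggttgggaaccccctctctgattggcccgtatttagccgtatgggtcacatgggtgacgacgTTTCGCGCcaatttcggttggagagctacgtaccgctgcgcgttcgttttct

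Promoters of 300 bases, from 250 before to 50 after the start, were found for 9365 of 12537 uniquely named genes. CAGAC was in 48% of them, in 55.6% of the 243 whose genes rose by at least 2-fold and in 47.5% of the 543 whose genes fell as much. It was in 4 of 14 promoters of the SMAD and feedback list (28.6%), to which Skil belongs, and in 17 of 26 of the interferon-stimulated list (65.4%), most of whose genes fell. The interferon-stimulated response element core was in 3.01% of all promoters and in 17 of 26 promoters of the interferon-stimulated list (65.4%). TTTGAA was in 11.8% of all and in 18 of 24 mitosis promoters (75%), and the E2F sites were in 1.62% of all and in 13 of 23 DNA replication promoters (56.5%). CCAAT, the NF-Y box, was in 38.1% of all promoters and also in 18 of 24 mitosis promoters. None of these motifs contains another, although different motifs can lie over each other at one position. These are matches of letters in a window and not measured binding sites.

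Most TGF-beta ligand genes rose, while Tgfbr2 and Tgfbr3 fell. Of 12 ligand and latency genes tested, 7 rose and 3 fell (median log2 fold change 0.35). Tgfb1, the gene of the ligand itself, was at 93.6, 104 and 94.6 CPM with vehicle and 142, 170 and 161 CPM with TGFB1. All treated libraries were above all vehicle libraries, a 1.62-fold rise (log2 0.70 ± 0.07 SE, edgeR adjusted p = 6.26e-08). Tgfb2 rose 2.88-fold and Tgfb3 2.72-fold, and Thbs1, a matrix protein that can release TGF-beta from its latent form, rose from 2369, 2496 and 2640 CPM to 5545, 5896 and 5692 CPM. Of 5 receptor genes, 1 rose and 2 fell (median 0.03): Acvr1, a type I receptor of the BMP branch, rose 1.96-fold, the signalling receptor Tgfbr2 fell 1.5-fold and the coreceptor Tgfbr3 fell 2.04-fold. Tgfbr1 was not called at a log2 fold change of 0.10.

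The list of SMAD and feedback genes moved further. Of 20 tested, 14 rose and 4 fell, with a median of 0.54. Pmepa1, which sequesters SMADs away from the receptor, was at 157, 156 and 155 CPM with vehicle and 616, 648 and 634 CPM with TGFB1, a 4.05-fold rise (log2 2.02 ± 0.08, edgeR adjusted p = 3.24e-14). The groups did not overlap, and the libraries within each lay close together. Smad7, the inhibitory SMAD, rose 2.32-fold, Skil 2.35-fold and the scaffold gene Nedd9 by 1.75 on the log2 scale.

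Among activins and follistatins, 4 of 9 rose and 2 fell (median 0.37). Inhba, the subunit of activin A, stood at 58.4, 57.9 and 67.8 CPM with vehicle and 276, 237 and 268 CPM with TGFB1, 4.24-fold higher. Inhbb, the subunit of activin B, went the other way, from 17.7, 21.1 and 20.3 CPM to 8.06, 8.21 and 8.08 CPM. In each of these genes the groups were apart without overlap. Lefty1, an extracellular inhibitor of nodal signalling, rose from 0.687, 0.59 and 0.545 CPM to 9.1, 7.55 and 8.92 CPM, and the activin binder Fst rose 2.88-fold. Of 15 BMP pathway and ID genes, 5 rose and 5 fell (median -0.05). Bmpr1b, a BMP type I receptor, rose from 1.85, 2.12 and 1.52 CPM to 20.4, 21.3 and 22 CPM, 11.6-fold, and Bmp2 rose 1.81-fold, while Bmp4 fell 1.44-fold. The BMP target genes Id1 and Id3 fell by 0.36 and 0.41 on the log2 scale, and Id2 was not called (-0.09).

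Collagen genes rose as a majority, with large differences between types. Of 20 tested, 11 rose and 6 fell (median 0.47). Col1a1, which encodes a chain of type I collagen, was at 2777, 3884 and 3465 CPM with vehicle and 3518, 4841 and 4058 CPM with TGFB1. These ranges overlapped, and the gene was not called (log2 0.29 ± 0.14, edgeR adjusted p = 0.0993). Col1a2, its partner chain, rose 1.47-fold (adjusted p = 0.000787) and Col3a1, the chain of type III collagen, rose from 186, 280 and 215 CPM to 570, 716 and 646 CPM, 2.84-fold. Col5a2 of type V collagen rose 2.72-fold, and Col7a1, which forms anchoring fibrils, rose from 0.236 to 0.343 CPM up to 7.45 to 7.86 CPM. Falls were seen in Col14a1, a collagen on the surface of fibrils (from 15.4, 12.5 and 11 CPM to 3.03, 2.69 and 3.13 CPM), and in Col6a1 of microfibrillar type VI collagen (1.74-fold).

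Enzymes that process collagen split into both directions, 5 of 21 higher and 9 lower (median -0.04). Lox, which crosslinks collagen, rose from 136, 140 and 135 CPM to 340, 382 and 377 CPM, and Plod2, which hydroxylates the lysines used in crosslinks, rose 2.49-fold. The relatives Loxl1, known for elastin crosslinking, and Loxl3 fell 2.98-fold and 2.76-fold, the first from 234, 266 and 235 CPM to 74.4, 88.5 and 83.5 CPM. Within the lysyl oxidase family the direction thus depended on the member.

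Among 30 glycoproteins of the matrix, 15 rose and 9 fell (median 0.32). Lamb3, a chain of the epithelial basement membrane laminin 332, had the largest rise under the rule for named genes: 15.7, 14.5 and 13.5 CPM with vehicle against 342, 384 and 358 CPM with TGFB1, 24.7-fold (log2 4.63 ± 0.08, edgeR adjusted p = 4.11e-20). Postn, the matricellular protein periostin, went from 5.34, 6.17 and 5.73 CPM to 41.8, 40.1 and 36.9 CPM, and Fbln2 rose 6.08-fold. Ccn2, also called connective tissue growth factor, went from 202, 181 and 184 CPM to 680, 740 and 699 CPM. In all of these the treated libraries were above the vehicle libraries without overlap. Fn1, fibronectin, was already at 3508, 4099 and 3901 CPM with vehicle and reached 6758, 7889 and 7391 CPM, 1.92-fold higher. Fbln5, an elastic fibre protein, fell 2.62-fold. Eln, elastin, fell from 1.37, 0.668 and 1.25 CPM to 0.441, 0.35 and 0.53 CPM (log2 -1.33 ± 0.40), a call that ended without HDAC1 vehicle replicate 1, where the value was -1.12, and with the heart and brain covariate (-1.03).

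Proteoglycan and hyaluronan genes were even, with 7 of 20 higher and 7 lower (median -0.02). Has2, which makes hyaluronan, rose from 25.4, 24.1 and 25.6 CPM to 188, 151 and 162 CPM, and Tnfaip6, whose product binds hyaluronan, rose from 5.07, 5.15 and 6.39 CPM to 66.5, 60 and 65.4 CPM. Chsy1, an enzyme of chondroitin sulfate chains, rose 3.81-fold, Bgn was not called (0.04) and Hyal1, a hyaluronidase, fell by 1.72 on the log2 scale. Of 27 proteases and inhibitors, 9 rose and 10 fell (median 0.02). Timp3, an inhibitor of metalloproteinases, rose 2.52-fold, Adam12 3.11-fold and Mmp14, a membrane collagenase, 1.99-fold. Mmp3 fell from 283, 213 and 254 CPM to 212, 131 and 179 CPM (log2 -0.53 ± 0.17), and the call ended without HDAC1 vehicle replicate 1 or replicate 3 (-0.42 and -0.51), with no low-count filter and in a fit to only the 6 libraries compared. Timp1 and Mmp13 were not called.

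**Figure D2:**
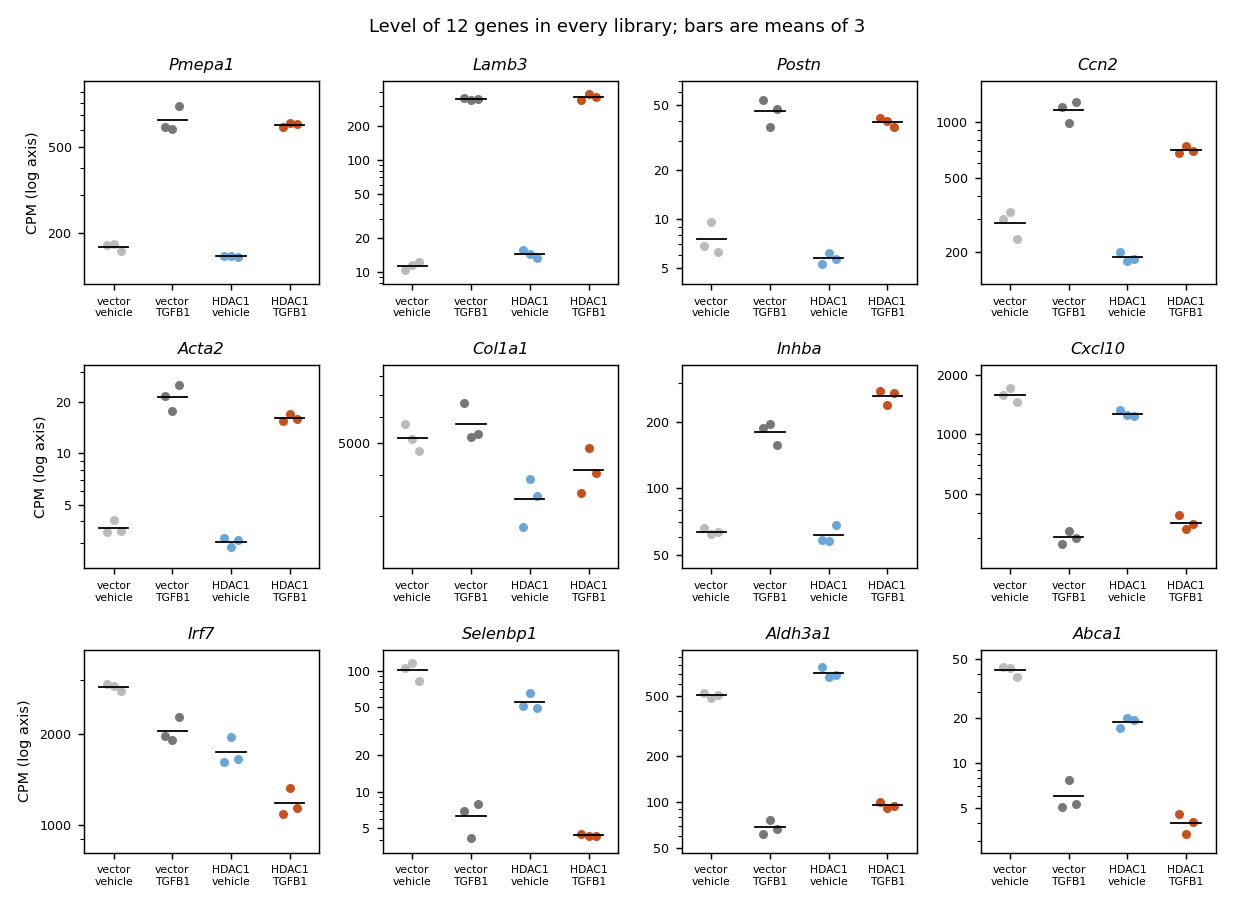
Level in CPM, on a log axis, of 12 genes in every library, by vector and treatment, each point 1 library and each bar the mean of 3. With HDAC1, Pmepa1, Lamb3, Postn, Ccn2, Acta2 and Inhba were higher with TGFB1 without overlap, Col1a1 overlapped, and Cxcl10, Irf7, Selenbp1, Aldh3a1 and Abca1 were lower without overlap.

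Of 28 contractile and cytoskeletal genes, 17 rose and 5 fell (median 0.36). Acta2, smooth muscle actin and the usual marker of myofibroblasts, was at 3.2, 2.83 and 3.12 CPM with vehicle and 15.3, 16.9 and 15.9 CPM with TGFB1, and rose 5.24-fold (log2 2.39 ± 0.13, edgeR adjusted p = 5.09e-12). The collagen receptor subunit Itga1 rose from 34.5, 44.3 and 39.8 CPM to 195, 191 and 185 CPM and Itgb3, a subunit of the vitronectin receptor, rose 3.06-fold. Myh11, the smooth muscle myosin, fell 3.26-fold from 12.7, 15.2 and 14.6 CPM. Tagln, another smooth muscle marker, was at 1.14, 2.01 and 1.52 CPM with vehicle and 0.386, 1.25 and 0.706 CPM with TGFB1. The groups overlapped (log2 -0.92 ± 0.33, adjusted p = 0.0268), and 5 of 16 alternative settings ended its call. The list's 5 falls became 3 when genes under a mean of 1 CPM were left out. Of 22 genes around SRF, YAP and TAZ, 12 rose and 3 fell (median 0.39), among them the DNA-binding partner Tead2, which rose 3.14-fold. Ankrd1, a common YAP target, fell 1.99-fold from 5.57, 7 and 6.97 CPM to 2.65, 2.84 and 4.24 CPM.

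Transcription factors of mesenchymal and lineage programmes were mixed, 10 of 23 higher and 8 lower (median 0.07). Klf4, a zinc finger transcription factor, fell from 185, 162 and 187 CPM to 61, 53.4 and 63.1 CPM, and Snai2 fell 1.93-fold, while Sox4, Sox11 and Runx1 rose 2.62-fold, 2.73-fold and 2.15-fold. Of 22 WNT pathway genes, 9 rose and 5 fell (median 0.04). The nuclear partners of beta-catenin rose: Lef1 went from 20.5, 22.8 and 24.4 CPM to 74.3, 74.9 and 79.5 CPM and Tcf7 from 3.72, 4.29 and 4.29 CPM to 22, 23 and 21.3 CPM. Axin2, a target of the pathway, rose 1.83-fold. The ligand Wnt2 was at 0.132, 0.118 and 0.156 CPM with vehicle and at 5.35, 5.84 and 6.14 CPM with TGFB1.

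Of 28 growth factor and receptor genes, 12 rose and 7 fell (median 0.15). Egfr, the EGF receptor, was at 17.1, 14.6 and 17.4 CPM with vehicle and at 98, 108 and 104 CPM with TGFB1, 6.3-fold higher, and its ligand Hbegf rose 3.42-fold while the ligand Areg fell by 1.66 on the log2 scale. Igfbp5, an IGF binding protein, rose 5.05-fold and Pdgfa 2.08-fold, while the PDGF receptor Pdgfra fell 1.7-fold. Il11 rose from 0.475, 0.315 and 0.935 CPM to 2.37, 2.49 and 1.72 CPM. The genes of the EGF receptor and of 1 of its ligands stood higher in the libraries in which Pdgfra stood lower. The other PDGF receptor gene, Pdgfrb, was not lower. It was at 21.4, 25.7 and 23.2 CPM with vehicle and 22.1, 28.8 and 25.4 CPM with TGFB1, and the groups overlapped.

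Most interferon-stimulated genes fell: 32 of 36 fell, 0 rose, and the median log2 fold change was -0.68. Cxcl10, a chemokine induced by interferon, was at 1328, 1245 and 1241 CPM with vehicle and at 390, 331 and 352 CPM with TGFB1, 3.56-fold lower (log2 -1.83 ± 0.08, edgeR adjusted p = 1.01e-13). Gbp2, a guanylate binding protein, fell from 410, 512 and 425 CPM to 108, 126 and 108 CPM. Irf7, a transcription factor that drives the programme, fell as well, from 1612, 1951 and 1653 CPM to 1086, 1326 and 1143 CPM. In all of these genes the groups did not overlap. Ifnb1, the gene of interferon beta, was at 10.7 to 13.5 CPM with vehicle and 11.7 to 14.1 CPM with TGFB1 and was not called (0.08). Of 13 genes for MHC class I and antigen processing, 12 fell and 0 rose (median -0.37), among them their regulator Nlrc5, 1.78-fold lower. Tap1 was the exception (log2 -0.19, adjusted p = 0.0518).

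Chemokine, cytokine and NF-kB target genes fell in 21 of 34 and rose in 5 (median -0.56). Vcam1, an adhesion molecule for leukocytes, went from 50.7, 53.1 and 59.1 CPM to 17.4, 15.3 and 15.2 CPM and Icam1 fell 1.89-fold. Ccl2, the chief monocyte chemokine, was at 925, 881 and 851 CPM with vehicle and 1067, 904 and 1019 CPM with TGFB1, overlapped, and was not called. Il6 rose 1.75-fold, to 18, 15.3 and 18.3 CPM. Il1rl1, the receptor of interleukin 33, was among the largest rises, from 24.8, 13.8 and 21.4 CPM to 219, 162 and 211 CPM, 9.78-fold. Of 16 complement and acute phase genes, 10 fell and 1 rose (median -0.78): C1r, a protease that starts the classical pathway, fell from 1023, 1238 and 1046 CPM to 517, 577 and 525 CPM and C1s fell 3.14-fold. C3 was at 8.32, 0.865 and 1.44 CPM with vehicle, highest in the library that held liver transcripts, and at 0.221, 0.233 and 0.353 CPM with TGFB1. Its log2 fold change was -3.73, and -2.07 without that library, and its call ended in a fit to only the 6 libraries compared.

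**Figure D3:**
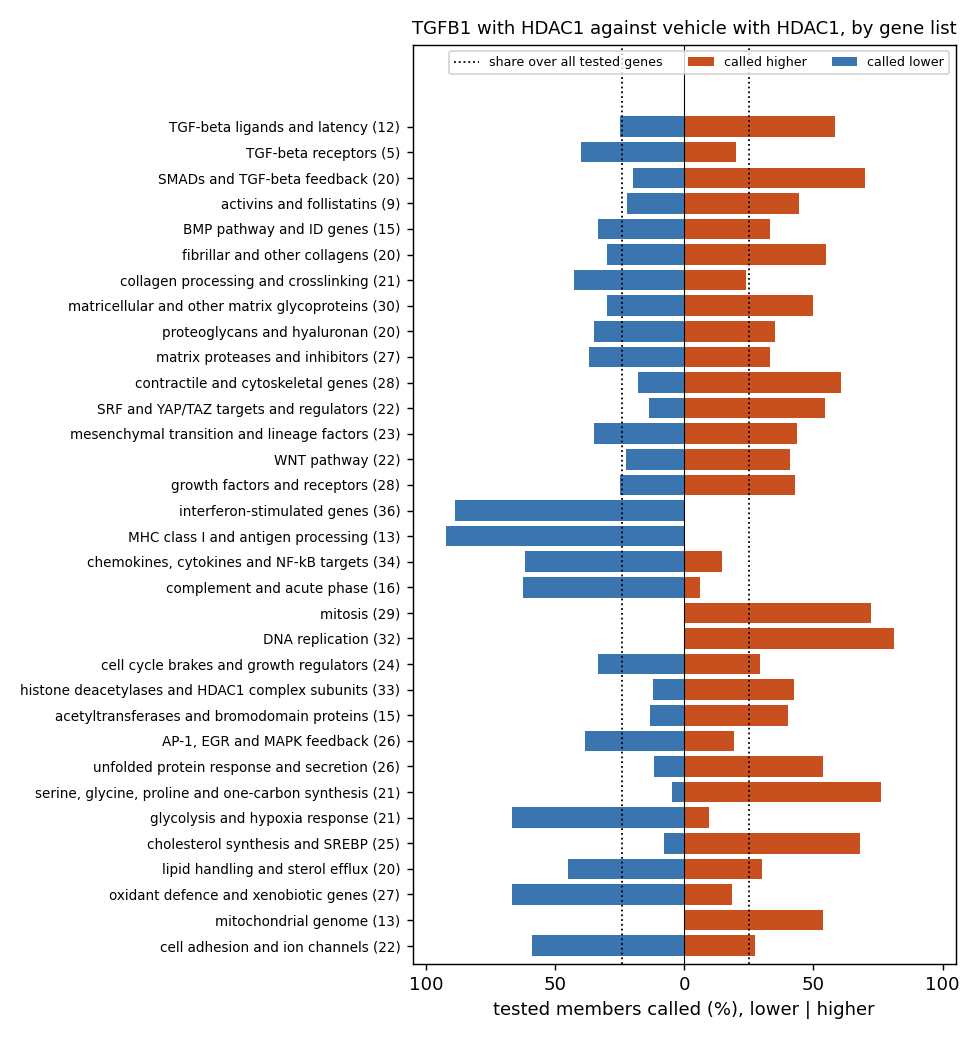
Share of the tested members of each gene list called lower (left) and higher (right) with TGFB1 in HDAC1 cells, with the number tested in brackets and the shares over all genes as dotted lines (24.2% lower, 24.9% higher). The interferon-stimulated and MHC class I lists reach only to the left, and the mitosis, DNA replication and mitochondrial genome lists only to the right.

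Most proliferation genes rose, by little. Of 29 mitosis genes, 21 rose and 0 fell (median 0.24), and of 32 DNA replication genes, 26 rose and 0 fell (median 0.33). Kif11, a spindle motor, went from 156, 144 and 154 CPM to 280, 250 and 255 CPM and Cdc6, which licenses replication origins, from 64, 56.9 and 61.9 CPM to 98.7, 94.1 and 92.6 CPM. Mcm7 rose from 203, 175 and 194 CPM to 265, 277 and 267 CPM (log2 0.50 ± 0.07). Mki67 rose 1.28-fold, and Top2a, a topoisomerase of dividing cells, was not called (0.08). Without HDAC1 TGFB1 replicate 1, 13 in place of 21 mitosis genes were called higher. Of 24 cell cycle brakes and growth regulators, 7 rose and 8 fell (median -0.0019): Myc rose from 59, 47.9 and 59.3 CPM to 118, 117 and 123 CPM, Cdk4 rose 1.33-fold, and the inhibitor Cdkn2c fell 1.35-fold.

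Histone deacetylases and subunits of the HDAC1 complexes were higher in 14 of 33 and lower in 4 (median 0.13). Hdac2, the closest relative and partner of HDAC1, rose from 92.5, 85.3 and 88.3 CPM to 152, 140 and 138 CPM, 1.62-fold (log2 0.69 ± 0.06, edgeR adjusted p = 1.16e-08). Kdm1a, the demethylase of the CoREST complex, rose 1.47-fold, while Hdac5, a class IIa member, fell from 106, 121 and 107 CPM to 59.7, 71.8 and 62.9 CPM. Of 15 acetyltransferases and bromodomain proteins, 6 rose and 2 fell (median 0.13), with Brd3 1.5-fold higher and Kat2b 1.57-fold lower. Leaving out HDAC1 TGFB1 replicate 2 lowered those 6 rises to 3.

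AP-1, EGR and MAPK feedback genes fell in 10 of 26 and rose in 5 (median -0.35). Jun fell from 392, 331 and 372 CPM to 189, 187 and 203 CPM while Junb rose 1.7-fold, so the AP-1 members did not move alike. The MAPK phosphatases also differed, Dusp1 2.27-fold lower and Dusp4 2.75-fold higher, and Spry1, a feedback inhibitor of receptor kinases, fell 3.62-fold. The 5 rises became 3 without any 1 of the 3 TGFB1 libraries, without HDAC1 vehicle replicate 2 and with the heart and brain covariate.

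Genes for making secreted protein rose in part: 14 of 26 genes of the unfolded protein response and secretion were higher and 3 lower (median 0.19). Creb3l1, a transcription factor of collagen-secreting cells, went from 80.2, 91.1 and 89.8 CPM to 166, 191 and 172 CPM, and the chaperone Hspa5 rose 1.48-fold. Of 21 genes for serine, glycine, proline and one-carbon synthesis, 16 rose and 1 fell (median 0.25). Pycr1, which makes proline, was at 10, 11.5 and 10.7 CPM with vehicle and 20.3, 27.3 and 23.4 CPM with TGFB1, and Shmt2 of the mitochondrial folate pathway rose 1.67-fold. Without HDAC1 TGFB1 replicate 2, 10 were called higher.

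Most genes of glycolysis and the hypoxia response fell, 14 of 21 lower and 2 higher (median -0.32). Ndrg1, a gene induced by low oxygen, fell from 590, 557 and 561 CPM to 186, 186 and 188 CPM, the carbonic anhydrase Car9 fell 2.06-fold and Pfkp, a phosphofructokinase, 1.78-fold. Hk2, a hexokinase, was an exception at 1.2-fold higher, a call that ended without HDAC1 TGFB1 replicate 1. Most cholesterol synthesis genes rose, with 17 of 25 genes higher and 2 lower (median 0.35): Msmo1 went from 203, 247 and 192 CPM to 444, 510 and 430 CPM and Cyp51 rose 1.97-fold. Without HDAC1 TGFB1 replicate 2, 11 of those 17 were called. Lipid handling and efflux genes were mixed, 6 of 20 higher and 9 lower (median -0.38). Abca1, which exports cholesterol, fell from 17.2, 20 and 19.5 CPM to 4.58, 3.35 and 4.02 CPM, 4.79-fold, and Ch25h, which makes an oxysterol, fell 3.66-fold. Most genes of sterol synthesis and the exporter gene Abca1 thus moved in opposite directions.

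Of 27 genes for oxidant defence and xenobiotics, 18 fell and 5 rose (median -0.34). Aldh3a1, an aldehyde dehydrogenase, fell from 775, 670 and 687 CPM to 100, 91.8 and 94.4 CPM, 7.44-fold (log2 -2.90 ± 0.08, edgeR adjusted p = 1.41e-16). Catalase (Cat) fell 2.11-fold and the extracellular superoxide dismutase Sod3 1.91-fold. The aryl hydrocarbon receptor gene Ahr rose 2.33-fold, whereas Aldh3a1, a known target of that receptor, fell. Nox4, an oxidase that makes hydrogen peroxide, rose from 2.43, 1.97 and 1.71 CPM to 4.47, 4.94 and 4.33 CPM. Of 13 genes of the mitochondrial genome, 7 rose and 0 fell (median 0.25), with Mt-cyb 1.35-fold higher. These 13 genes held 2.125% to 2.439% of the raw counts with vehicle and 2.09% to 2.397% with TGFB1. That share is taken without TMM scaling, unlike the fold changes. The TMM factors were 1.028 to 1.042 with vehicle and 0.968 to 0.976 with TGFB1.

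Adhesion molecules and channels fell in 13 of 22 and rose in 6 (median -0.56). Ncam1 and Cdh2, adhesion molecules of mesenchymal and neural cells, rose 3.49-fold and 2.26-fold. Itga3, an integrin subunit that binds laminins, fell from 795, 735 and 798 CPM to 225, 245 and 238 CPM, in the same libraries in which the laminin chain Lamb3 rose.

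Beyond the lists, the largest rises under the rule for named genes included Enpp1, which makes pyrophosphate, from 50, 49 and 50.3 CPM to 543, 548 and 536 CPM, and Ankh, a transporter of ATP and pyrophosphate out of the cell, from 104, 122 and 108 CPM to 662, 689 and 715 CPM. Neu1, a lysosomal sialidase, rose 7.3-fold and Itga2, a collagen receptor subunit, 6.95-fold. Fam167a and the transporter gene Slc47a1 rose 6.71-fold and 5.84-fold. Under the rule for named genes the largest fall was that of Selenbp1, a selenium-binding protein, from 51, 65.2 and 49.5 CPM to 4.52, 4.32 and 4.33 CPM, 12.6-fold (log2 -3.65 ± 0.21, edgeR adjusted p = 1.92e-08). Acod1, which makes itaconate, fell 8.6-fold, the cytokine receptor gene Il20rb 9.66-fold, the transcription factor gene Etv1 7.49-fold and Ifi27l2a, an interferon-stimulated gene, from 499, 693 and 532 CPM to 64.5, 83.1 and 75.1 CPM. Lipid mediator genes were among the falls too, Pla2g2a, a secreted phospholipase, at 7.57-fold and Ptgs1, a cyclooxygenase, at 7.34-fold. Serpinb2, an inhibitor of plasminogen activators, fell 7.75-fold, Hs3st1, a heparan sulfate sulfotransferase, 6.95-fold, and Sema6a, Rasgrp2 and Rhpn2 fell 6.49-fold, 6.46-fold and 6.35-fold. In each gene of this paragraph so far the groups did not overlap. Apoe and Krt14 also met the rule for large falls, and both were highest in the library with liver transcripts. With vehicle Apoe was at 95, 10.2 and 9.19 CPM and Krt14 at 42.2, 12.5 and 9.82 CPM. Without HDAC1 vehicle replicate 1 the log2 fold change of Apoe went from -3.07 to -1.06 and was no longer called (8 of 14 alternative settings ended its call), and that of Krt14 from -2.77 to -1.79 and was still called. Apoe is also heart-and-brain-like.

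Whether the response differed from that of cells with the empty vector was tested with the interaction term of the same fit. The empty vector response held 7429 called genes (50.9%), and these 2 comparisons share no libraries. Of the 3638 genes that rose with HDAC1, 2954 (81.2%) also rose with the empty vector, where they were 78.1% of the rises, and of the 3532 that fell, 2741 (77.6%, and 75.1% of the empty vector falls) also fell. Across genes the log2 fold changes of the 2 responses had a Pearson r of 0.728 over 14601 genes. It was 0.831 over the 14067 that are not heart-and-brain-like. Both are given as a description, since genes are not independent replicates. The rule that marks heart-and-brain-like genes uses the empty vector vehicle libraries, which enter the empty vector response and the difference. Leaving these genes out can therefore raise r through the way they were chosen. The difference itself was called for 70 genes (0.479%), 20 with a higher value with HDAC1 (0.137%) and 50 with a lower one (0.342%). This count was unstable: it was 0 with the heart and brain covariate (854 genes at an unadjusted p under 0.05 there), 3 without HDAC1 TGFB1 replicate 3, 257 without empty vector vehicle replicate 3, and 275 with DESeq2. Of the 70 genes, 7 are heart-and-brain-like.

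**Figure D4:**
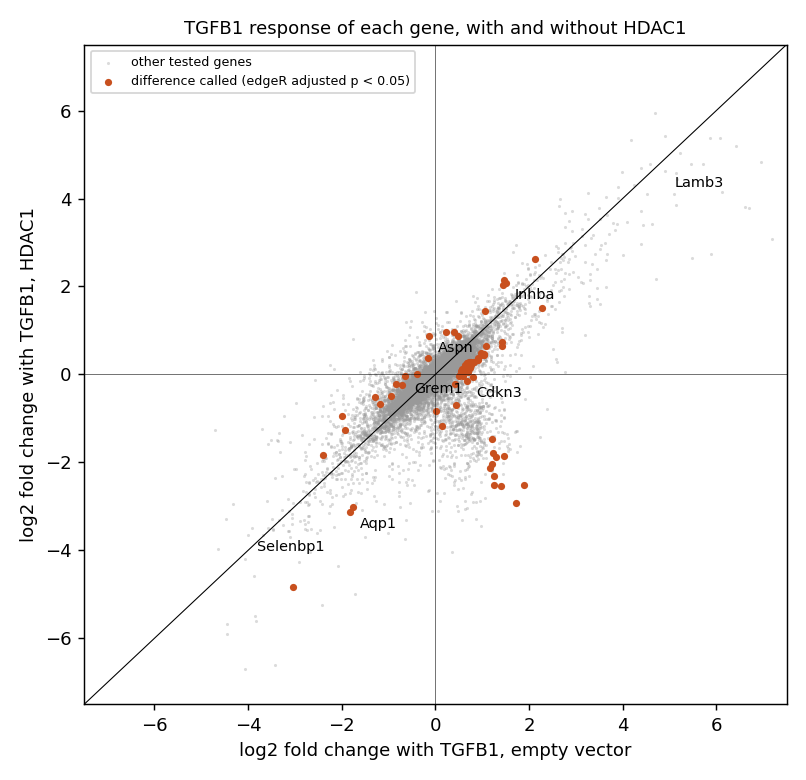
Log2 fold change with TGFB1 of each of 14601 genes in cells with the empty vector (horizontal) and with HDAC1 (vertical), with the line of equal response. Orange points are the 70 genes whose difference was called, with 7 genes named.

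In the mitosis list 7 of 29 members had a called difference, each with a lower log2 fold change with HDAC1, as did 2 of 32 in the replication list, against 0.342% of all genes. No difference was called with the heart and brain covariate, and of 20 alternative settings the call was missing in 3 for Kif20a, 6 each for Ccnb1 and Ube2c, 8 for Cdc20, 9 for Ccnb2 and 10 each for Bub1b and Plk1. In the replication list it was missing in 3 settings for E2f1 and 10 for Cdc6. In the TGFB1 response of HDAC1 cells, Cdc20, Ccnb2, Kif20a and E2f1 were not called and their groups overlapped (log2 0.14, -0.01, 0.09 and -0.05). The median log2 fold change of the mitosis list was 0.24 with HDAC1 and 0.60 with the empty vector, and that of the replication list was 0.33 and 0.68. These members are named because of their difference, so their values are given as a description. Cdc20, which activates the anaphase ligase, was at 78.9, 68.4 and 70.5 CPM with vehicle and 78.6, 79.5 and 81.3 CPM with TGFB1 in HDAC1 cells, while with the empty vector its mean went from 42.8 to 70.4 CPM. Ccnb2, a mitotic cyclin, was at 84.5, 73.5 and 74.7 CPM and at 81.8, 75.4 and 74.3 CPM with HDAC1, and went from a mean of 47.1 to 68.4 CPM with the empty vector. In both genes the HDAC1 vehicle libraries already reached the level of the empty vector libraries with TGFB1. Plk1, a mitotic kinase, rose in both settings, 1.3-fold with HDAC1 (difference -0.53 ± 0.11), and the others were Ccnb1, Kif20a, Ube2c and Bub1b, with differences from -0.59 to -0.42. Cdc6 (-0.44) and the transcription factor gene E2f1 (-0.63) were the replication members. Cdkn1b, an inhibitor of cyclin-dependent kinases, differed the other way: it fell from 118, 129 and 132 CPM to 103, 107 and 108 CPM with HDAC1 (log2 -0.25) and from a mean of 172 to 104 CPM with the empty vector.

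**Figure D5:**
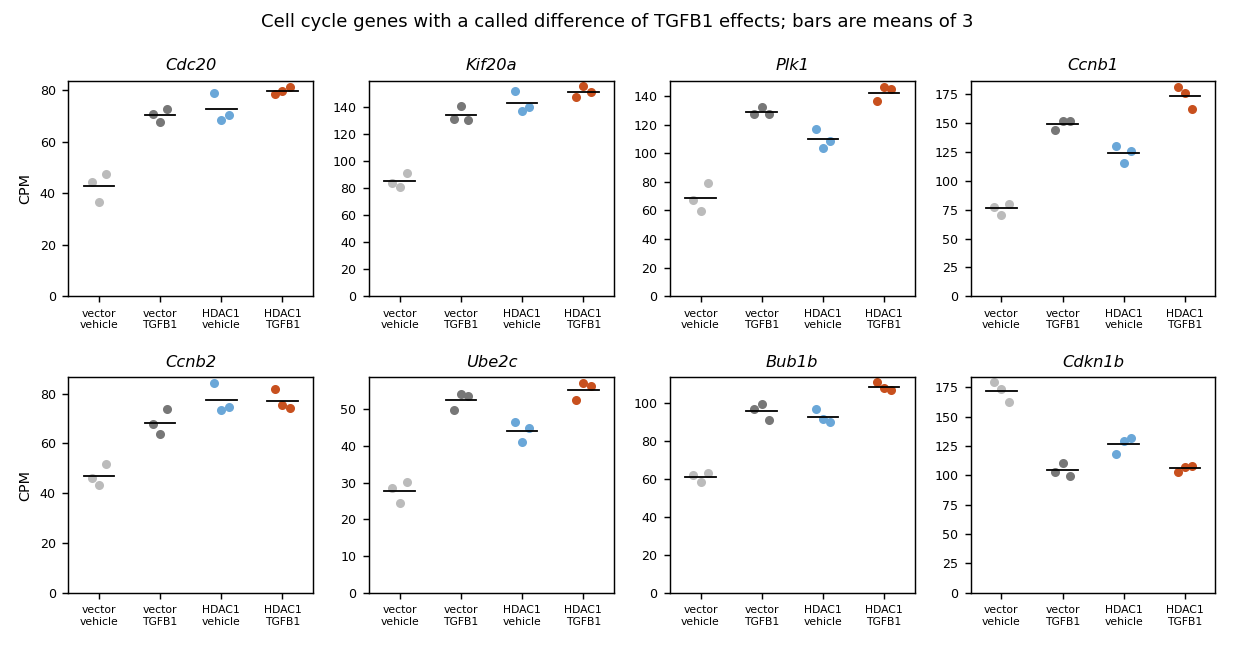
CPM of 7 mitosis genes and Cdkn1b in every library, by vector and treatment, each point 1 library and each bar the mean of 3. In the mitosis genes the HDAC1 vehicle libraries lie above the empty vector vehicle libraries, and the TGFB1 groups of both vectors lie closer together.

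Differences were called for 1 of 12 ligand and latency genes, 2 of 9 activins and follistatins, 1 of 15 BMP pathway genes, 0 of 20 SMAD and feedback genes and 0 of 5 receptors. Inhba rose more with HDAC1, 4.24-fold against 2.83-fold with the empty vector (difference 0.59 ± 0.12, edgeR adjusted p = 0.029), and Tgfb3 did too (0.38). Inhbb fell less (0.65), and Grem1, a BMP antagonist, did not change with HDAC1 by the test, at 548, 543 and 526 CPM with vehicle and 557, 475 and 533 CPM with TGFB1, whereas its mean went from 531 to 340 CPM with the empty vector (difference 0.59 ± 0.10, adjusted p = 0.0196). Aspn, a small proteoglycan that binds TGF-beta, rose from 33.2, 41.2 and 30.9 CPM to 70, 62.9 and 60.1 CPM with HDAC1 and had means of 75.1 and 68.5 CPM with the empty vector (difference 1.00 ± 0.16). The vehicle level of Aspn was thus lower with HDAC1 and the level with TGFB1 close between vectors.

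Further differences were Kcnj2, a potassium channel gene (1.04), Ccn5 (0.77), the ligand gene Wnt5a (0.64), the protease gene Adamts12 (0.59), Cxcl10 (0.56) and Ankh (0.49) on the positive side. On the negative side the water channel gene Aqp1 fell from 41.1, 49.4 and 44.6 CPM to 3.7, 6.42 and 4.99 CPM with HDAC1, 8.75-fold, and from a mean of 33.8 to 9.62 CPM with the empty vector (difference -1.31 ± 0.19, edgeR adjusted p = 0.00971). Vsnl1 (-1.31), Dnajc6 (-1.14), Vwa1 (-0.85), Eno3 (-0.84), Cdkn3 (-0.81), Slc17a6 (-0.77) and Rgs2 (-0.77) followed. Of these, Vsnl1, a calcium sensor gene of neurons, and Dnajc6 were at 7.87, 7.04 and 8.57 CPM and at 6.66, 7.24 and 7.83 CPM with vehicle in HDAC1 cells. Neither gene is heart-and-brain-like. In empty vector vehicle replicates 1 to 3 Vsnl1 was at 5.12, 6.47 and 6.73 CPM and Dnajc6 at 4.11, 5.3 and 5.83 CPM. The brain marker sum of those replicates was 21.74, 117.7 and 117.4 CPM. In the HDAC1 libraries that sum was lower with TGFB1. With the heart and brain covariate neither difference was called, nor that of any other gene. The part of brain transcripts in both differences was not tested otherwise.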

How the data were processed

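Raw counts for rat Ensembl genes, and a second table of normalized signal, were deposited by the authors. The submitters' processing notes name Trim Galore 0.6.7 for trimming, featureCounts of Subread 2.0.1 for counting and DESeq2 1.44. The notes name the mouse build mm10 although the identifiers are those of rat genes, and which aligner and rat build were used, and how reads matching several genes were treated, is not given in the sources used here. The deposited normalized signal was checked to be the deposited counts divided by 1 constant per library over the 14275 genes whose counts summed to 100 or more, and served only to name genes (1909 tested genes had no symbol and 155 shared one).

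Raw counts of 12 libraries (18397093 to 36652084 counts) were filtered with filterByExpr, scaled with TMM and fitted with the robust quasi-likelihood model of edgeR 4.0.16 in R 4.3.3, with 1 mean per group, 8 residual degrees of freedom and a common biological coefficient of variation of 7.61%. The 14601 genes tested held at least 99.8789% of each library's counts. Tests were two-sided, and p-values were adjusted over all genes tested and called under 0.05. CPM values use the TMM-scaled library sizes, and log2 CPM a prior count of 2. Standard errors of log2 fold changes were taken as their absolute value over the root of the F statistic. The fit was also run on simulated data in which the changed genes were known. These were far fewer than the genes called here, and no result above rests on that run.

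Genes were named by rule: Hdac1 and Hdac1l, the 15 largest rises and falls among called genes that had a symbol, averaged 2 or more in log2 CPM and showed no overlap of the groups, the 8 largest differences each way by the same conditions, with no overlap asked for in at least 1 of the responses with HDAC1 and with the empty vector, and, per list, up to 6 members by adjusted p plus key genes. Other genes named were chosen after their values were seen. Some genes that met the rule are not reported here. The members and lists were chosen with earlier results of these data known. As alternatives, size factors from DESeq2 1.42.0 and its test were run, with other low-count filters, no robust dispersion, a fit to the 6 libraries compared, a replicate block, a heart and brain covariate, and leaving out each library. Promoter sequences are those of RefSeq on GRCr8, matched by symbol.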

Additional observations from a re-analysis of the deposited data

Results flagged for a closer look

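The difference between the TGFB1 response with HDAC1 and that with the empty vector, tested as an interaction in edgeR, was called for 70 genes. Those that are members of a list or meet the rule for named genes are given here with their differences in log2 fold change (HDAC1 minus empty vector).

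Among genes of the TGF-beta superfamily, its antagonists and the matrix, the differences were 0.59 for Inhba, 0.65 for Inhbb, 0.38 for Tgfb3, 0.59 for Grem1, 1.00 for Aspn, 0.77 for Ccn5, 0.59 for Adamts12 and -0.85 for Vwa1, which encodes a matrix protein. For cell cycle genes they were -0.49 for Ccnb1, -0.54 for Ccnb2, -0.58 for Cdc20, -0.56 for Kif20a, -0.53 for Plk1, -0.59 for Ube2c, -0.42 for Bub1b, -0.44 for Cdc6, -0.63 for E2f1 (ENSRNOG00000072439, 1 of 2 genes with this symbol), -0.81 for Cdkn3 and 0.47 for Cdkn1b. The remaining values were 0.64 for the WNT ligand gene Wnt5a, 0.49 for Ankh, 0.56 for Cxcl10, 1.04 for Kcnj2, -1.31 for Aqp1, -1.31 for Vsnl1, -1.14 for Dnajc6, -0.84 for Eno3, -0.77 for Slc17a6 and -0.77 for Rgs2. The number of alternative settings in which a gene was not called ran from 1 of 20 for Cdkn3 to 11 of 20 for Tgfb3. It was 2 or 3 for Aqp1, Aspn, E2f1, Kif20a, Vsnl1 and Wnt5a, 4 for Grem1, 6 or 7 for Adamts12, Ankh, Ccnb1, Cxcl10, Dnajc6, Inhba, Slc17a6, Ube2c and Vwa1, 8 or 9 for Ccnb2, Cdc20, Cdkn1b, Eno3 and Inhbb, and 10 for Bub1b, Ccn5, Cdc6, Kcnj2, Plk1 and Rgs2.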

How the results depend on the processing

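The number of genes called for TGFB1 with HDAC1 (7170) stayed within 1.5 times under every alternative run, from 5941 with the heart and brain covariate to 7657 with only the 6 libraries compared, and from 6210 to 6698 without 1 library of the comparison. None of the 7170 genes was called in the opposite direction under any of these. Of 247 named genes that were called, 231 kept their call under all the settings run and 16 lost it under at least 1, among them Apoe, Scx, Vcan, Cyp1b1, Tagln, Mmp3 and Phgdh. The difference of TGFB1 effects depended on the processing far more. Its 70 genes became 479 with no low-count filter, 275 with the DESeq2 test and 0 with the heart and brain covariate, and ran from 3 to 257 when 1 library was left out (257 without empty vector vehicle replicate 3, 3 without HDAC1 TGFB1 replicate 3, 5 without HDAC1 TGFB1 replicate 1, 8 without HDAC1 vehicle replicate 3, 14 without empty vector vehicle replicate 2). The cause was not tested. The log2 difference of the heart and brain sum, -1.13, ran from -1.39 to -0.99 without 1 library.

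Whether replicate numbers pair the samples is not known, and the main fit did not pair them. The correlations of deviations between HDAC1 libraries of the same number were 0.0898, 0.115 and -0.00428. Between libraries of different numbers they ran from -0.115 to 0.0194. Replicates 1 and 2 thus correlated best with their own number and replicate 3 did not. Hdac1 and Hdac1l were lowest in replicate 2 of both groups. With a replicate block, 6915 genes were called for TGFB1 with HDAC1 and 98 for the difference. Alternatives that leave out the empty vector vehicle library that stood apart, or each library in the heart and brain sums, were chosen after seeing the data. With 3 libraries a group, no exact test over samples can give a p under 0.1.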

Other observations

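Some called genes with large negative differences lay below the level asked for by the rule for named genes, and those named here were chosen after their values were seen. In HDAC1 cells Pde1b, a phosphodiesterase gene of neurons, was at 0.872, 1.26 and 1.32 CPM with vehicle and 0.221, 0.117 and 0.265 CPM with TGFB1, and its mean with the empty vector went from 0.358 to 1.31 CPM. Mag, a myelin gene, was at 0.819, 1.22 and 2.03 CPM and at 0.221, 0.272 and 0.397 CPM with HDAC1, and went from 0.559 to 1.22 CPM with the empty vector. Rbfox3, the gene of the neuronal nuclear antigen NeuN, followed the same order, from 1.39 to 0.487 CPM with HDAC1 and from 0.732 to 1.75 CPM with the empty vector as means. The summed brain markers were also lower with TGFB1 in the HDAC1 libraries. With the heart and brain covariate no difference was called, and the part of brain transcripts in these 3 differences was not tested otherwise. Of the 3, Mag is heart-and-brain-like.

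Mybphl, a myosin binding protein gene of muscle, fell with either vector. With HDAC1 it was at 4.28, 6.17 and 5.57 CPM with vehicle and 0.166, 0.195 and 0.177 CPM with TGFB1, and its means with the empty vector were 12 and 1.46 CPM. The groups did not overlap, and the gene is not marked as heart-and-brain-like.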
